A study of Macaca mulatta with 2 samples.

Results

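The complement genes described here are 9 genes for locally made complement proteins and for the inhibitors that hold complement in check: C3, CFB, CFD, CFI, C1R, C1S, CD46, CD55 and CD59. They were found by the gene name that the array gives to its probes, and they are 9 of 21509 gene names on the array. They had 17 probes, 1 probe each for 5 genes and several for the other 4. Messenger RNA was measured on 2 one-colour arrays, 1 for each group. The infant array held RNA from primary Sertoli cell cultures of male rhesus macaques under 3 months old. The pubertal array held RNA from Sertoli cell cultures of males of 18 to 22 months, whose puberty had been induced with gonadotropin-releasing hormone given through a catheter for 4 to 5 weeks, at 0.15 µg/min for 2 min once every 3 h. Before RNA was taken, each culture was kept for 12 h with follicle-stimulating hormone at 5 ng/ml and testosterone at 100 nM, so no culture here lacked these hormones. Sertoli cells line the seminiferous tubule and surround and feed the germ cells. The sources used here do not say how many animals each culture came from. With 1 array in each group there was no replicate and no test, and the effects of age, hormone-induced puberty, animal and culture cannot be told apart.

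Complement is a cascade of serum proteases that marks cells and microbes for destruction. The classical pathway starts when C1q binds a target and activates the proteases C1r and C1s, and the alternative pathway amplifies the signal by joining C3b with factor B, which factor D then cuts. Both routes meet at C3 and end in a pore built from the terminal components. Host cells are protected by factor I, a soluble protease that cuts C3b and C4b, and by the membrane proteins CD46, CD55 and CD59. The testis is an immune-privileged organ, and sperm and Sertoli cells carry complement inhibitors.

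The probes were 60 bases long and were designed on human transcripts, to which the monkey RNA had to hybridise. Most are printed, because the differences below were read through them, and because for CD46 and CD59 the probes of the same gene did not give the same answer. All are written in lower case from 5′ to 3′. The probes of CFB, C3, CD46 P35230 and CD55 P188377 are whole, and of each other printed probe the first 30 bases are shown. The probes of CFI and CFD, CD55 P312008 and CD59 P784765 are not printed.
C1R P125423: aggatatagttatcaatctctagttgtcac
C1S P2492: gccttgctagaggtagagtttgatcataga
CFB P156687: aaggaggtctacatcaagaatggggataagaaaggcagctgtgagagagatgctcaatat
C3 P101407: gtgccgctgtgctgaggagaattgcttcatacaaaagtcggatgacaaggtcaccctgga
CD46 P201758: ctcatgagtgcaactgtggcttagctaata
CD46 P35230: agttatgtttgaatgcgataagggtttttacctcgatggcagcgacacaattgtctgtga
CD46 P282597: caaatttaatatttatattagagatctata
CD55 P188377: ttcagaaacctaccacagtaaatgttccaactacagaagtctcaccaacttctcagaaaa
CD55 P374862: atgcaattgtgctcttcatttaggatgctt
CD59 P75523: cctttcacaagggcaaactttttccttttc
CD59 P141481: tctcttgctgccacattctaaaggcttgat
CD59 P639441: actgaactgggaaactcaaggttcttttta

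The probes' GC content ran from 15% in CD46 P282597 to 55% in the probe of CFD, against a median of 41.7% over the array. Among probes under 30% GC, 18.4% were well above background on both arrays, and among those of 40 to 50% GC 51.9% were. The probe of C1R shared a run of 16 bases with a probe of TMEM2, and those of C1S, CFB and C3 shared no run of 15 bases with a probe of another gene. CFI P7212 shared 16 bases with a probe of ZNF781, and CFI P92472 and CD59 P75523 shared runs of 15 with probes under other names. Mismatches between these human probes and the monkey transcripts were not counted here.

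The share of gene spots well above background was 54.9% for the pubertal and 54.8% for the infant culture, with no saturated spot. A value is the log2 of a signal less that of the array's 75th percentile, and every difference is pubertal minus infant. The error beside a difference is that of the scanner software, which says nothing of the spread between cultures. It had a median of 0.20 over genes. Of all gene names, 14243 were measured on both arrays, meaning that at least 1 probe was well above background on both, and their median difference was -0.06. All 16 of the Sertoli cell markers looked for were measured on both arrays, with a median difference of 0.43. Their differences ran from -1.31 for INHBB to 3.32 for TF. Of the 16, 5 were higher and 1 was lower by at least 2-fold, where 7.32% and 6.32% of all measured genes were. Dividing by each array's median shifted all differences by -0.16, and scaling on the spike-in control probes shifted them by 1.05.

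Complement factor B and the C1 proteases had lower signals in the pubertal culture, while C3, factor I and the membrane inhibitors lay nearer to 0. CFB was 6.19-fold lower, C1R 4.28-fold lower and C1S 4.21-fold lower. Of the 8 members measured on both arrays, 3 were at least 2-fold lower and 0 were at least 2-fold higher, where 6.32% and 7.32% of all measured genes were. The same 3 were at least 4-fold lower, as were 0.857% of all measured genes. The median over the 8 was -0.60, and 7 were below 0, against 54.2% of all genes. On the spike-in scale CFB, C1R and C1S were still at least 2-fold lower, while the median of the 8 turned to 0.45. CFD was not measured, since its only probe was well above background on neither array. RNA from whole cultures was hybridised, so fewer cells of a type and less RNA per cell cannot be told apart.

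**Figure D1:**
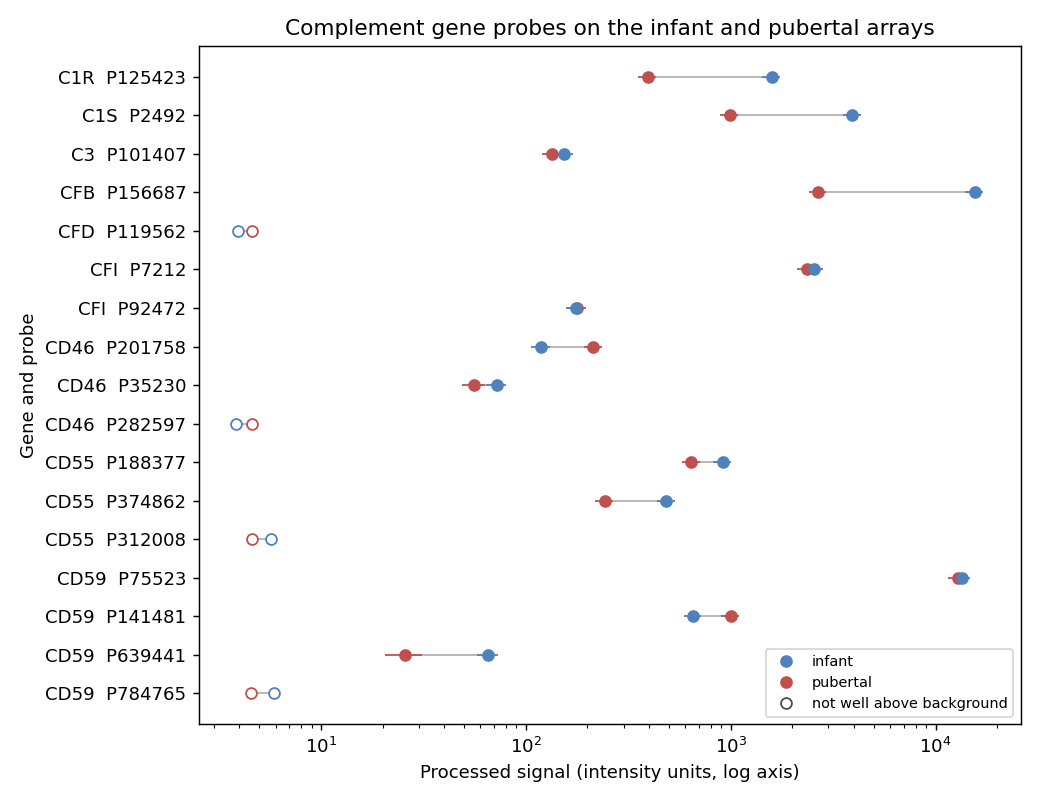
Processed signal of each of the 17 probes of the complement genes on the infant array (blue) and the pubertal array (red), on a log axis in intensity units, with bars for the scanner software's error and open circles for spots not well above background. The infant and pubertal points of CFB, C1R and C1S lie far apart, those of C3 and CFI lie close together, and the 4 probes with open circles are at the floor on both arrays. Signals of different probes are not comparable.

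C1r and C1s are the paired serine proteases of the C1 complex, and C1r activates C1s. The probe of C1R read 394 intensity units on the pubertal array against 1584 on the infant array, or -0.05 and 2.05 on the log2 scale. The difference was -2.10 ± 0.20. The probe of C1S read 989.7 units on the pubertal array against 3916 on the infant array, or 1.28 and 3.36 on the log2 scale, a difference of -2.07 ± 0.20. Both proteases thus had the higher signal in the infant culture, by nearly the same factor: their differences lay -0.02 ± 0.29 apart. They ranked 103 and 109 from the lowest of the 14243 differences. In the macaque RefSeq annotation the 2 genes are neighbours on the chromosome. The nearest measured genes beyond C1S, EMG1 and PHB2, differed by -0.49 and -0.61, less than C1R and C1S did. C1RL, a related protease gene close to C1R, was well above background on neither array. C1r and C1s act only when carried by C1q, whose chains are encoded by C1QA, C1QB and C1QC. The probes of C1QA and C1QC were well above background on neither array, and that of C1QB was so on the pubertal array alone, at 32.4 units.

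Factor B carries the protease of the alternative pathway convertase, and C3 is the protein that it cuts. CFB read 2669 units on the pubertal array against 15528 on the infant array, or 2.71 and 5.34 on the log2 scale. The difference of -2.63 ± 0.20 was 44th from the lowest of all measured genes and the largest among the members, although it lay only -0.53 ± 0.29 beyond that of C1R. The spots themselves were even, with a mean of 2802 and an SD of 203 over 44 pixels on the pubertal array and a mean of 16735 and an SD of 718 over 42 pixels on the infant array. C3 read 134 units on the pubertal array against 154 on the infant array, or -1.60 and -1.31 on the log2 scale. Its difference was -0.29 ± 0.21 (1.23-fold lower), and 0.76 on the spike-in scale, so its direction was not settled. The spots around that of C3 had a median difference of -0.26, the lowest found around any probe of the members. Around the spot of CFB it was nearly the same, at -0.24. The difference of CFB lay -2.34 ± 0.29 below that of C3, a gap that is the same on the median and spike-in scales, since these shift all differences alike. Factor D, the protease that activates factor B, read 4.60 and 3.93 units, and no fold is given for it.

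CFB has a close relative, C2, which does the same work in the classical pathway and is the next gene on the chromosome in the macaque annotation. The 2 genes differed in opposite directions. C2 was 2.47-fold higher on the pubertal array, by 1.30 ± 0.13, as the mean of probe differences of 1.75, 1.56 and 0.61. Its brightest probe read 2200 units on the pubertal array against 702 on the infant array. One further C2 probe was well above background on neither array. The gap between CFB and C2 was -3.93 ± 0.24. C2 was under 2-fold with normexp background correction, at 0.93, and with the weaker detection flag or no filter on dim probes, at 0.84 in both. EHMT2, the other measured gene near CFB, differed by -0.13.

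**Figure D2:**
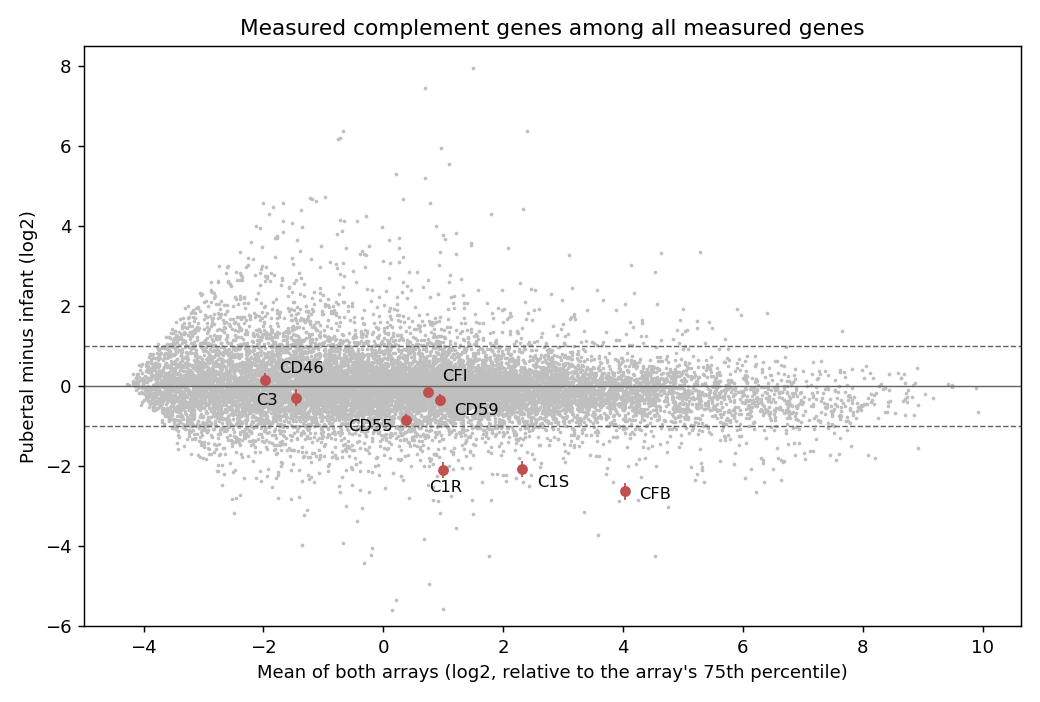
Difference between the arrays (pubertal minus infant, log2) against the mean of both arrays (log2 relative to the array's 75th percentile) for genes measured on both, with the 8 measured complement genes in red and their scanner error as bars. CFB, C1R and C1S lie below the dashed line at 2-fold and the other 5 lie between the dashed lines; 2 genes fall beyond the plotted range.

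Factor I is the soluble protease that inactivates C3b and C4b with the help of cofactors such as CD46. Its brighter probe read 2348 units on the pubertal array against 2554 on the infant array, a difference of -0.21, and the other read 178 and 175 units, a difference of -0.06. The probes of CFI agreed to within their error, with an SD of 0.10 between them, where 73.4% of the 4767 genes with several measured probes had at least that much. The difference of CFI was -0.14 ± 0.15, within its error of 0, and 0.92 on the spike-in scale. The difference of CFB lay -2.49 ± 0.25 below that of CFI, on the spike-in scale too. SERPING1, the C1 inhibitor, which blocks C1r and C1s, was well above background on neither array. The absence of a signal from a human probe does not show that the monkey gene was silent.

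CD55 speeds the decay of the convertases, and of CD46, CD55 and CD59 it was the one whose measured probes had the same sign. The probe P188377 read 641 units on the pubertal array against 914 on the infant array, a difference of -0.60, and P374862 read 243 and 484 units, a difference of -1.08. The third probe, designed on another transcript entry, was well above background on neither array. CD55 as a whole differed by -0.84 ± 0.15, short of 2-fold. It reached -1.002 when the arrays were scaled on the median, which brings the members at least 2-fold lower to 4, and turned to 0.21 on the spike-in scale. Its difference lay -0.99 ± 0.22 below the mean of the CD46 probes and -0.49 ± 0.21 below that of the CD59 probes. These errors leave out the spread between probes, which lay 1.22 apart for CD46 and up to 1.96 apart for CD59. A CD59 probe, at -1.43, lay below both measured probes of CD55, so the order of these inhibitors was not settled.

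CD46 is the membrane cofactor for factor I, and its probes went in opposite directions. P201758 read 213 units on the pubertal array against 118 on the infant array, a difference of 0.76. P35230, which was designed on a different transcript entry of CD46, read 55.9 and 72.2 units, a difference of -0.46. The gap between these probes, 1.22 ± 0.33, was larger than their scanner error, and the SD of 0.86 between them was reached by 5.16% of the genes with several probes. The mean, 0.15 ± 0.16, therefore hides a disagreement and gives no direction for CD46, and it was -0.01 with scaling on the median. The third probe, the one of 15% GC printed above, read 4.62 and 3.86 units, not well above background.

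CD59 blocks the last step, the growth of the membrane pore, and its probes disagreed as well. P75523, by far its brightest, read 12852 units on the pubertal array against 13449 on the infant array, a difference of -0.15. P141481 read 1000.4 and 654 units, a difference of 0.52, and P639441 read 25.8 and 65.4 units, a difference of -1.43. The gap between the last 2 was 1.96 ± 0.39, and only 3.42% of the genes with several probes had an SD as large as the 0.99 of CD59. All 3 are assigned by the array to the same transcript entry. The mean of -0.35 ± 0.15 was pulled down by the dimmest probe, and with the brightest probe alone CD59 differed by -0.15. It was 0.70 on the spike-in scale. The remaining probe was well above background on neither array.

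**Figure D3:**
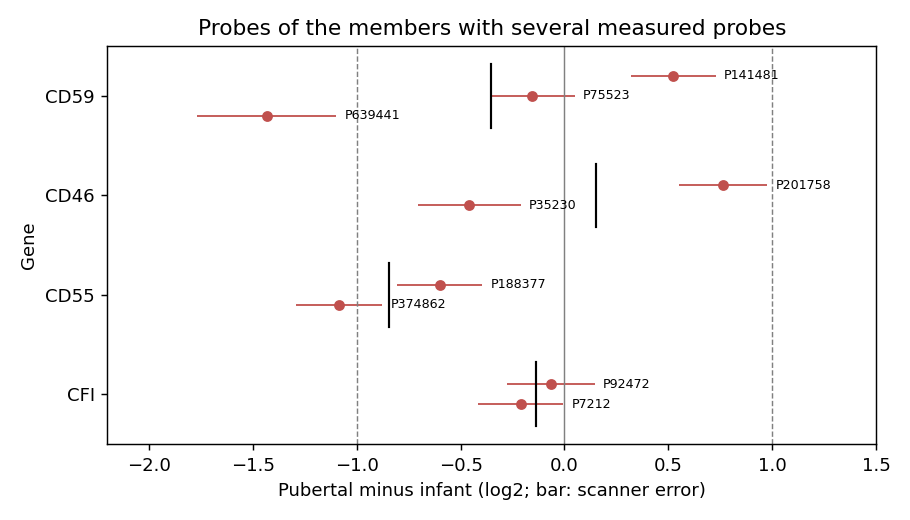
Difference between the arrays (pubertal minus infant, log2) for each measured probe of CFI, CD55, CD46 and CD59, with bars for the scanner error and a black line at the mean of the gene. The probes of CFI and of CD55 lie on the same side of 0, whereas those of CD46 (0.76 and -0.46) and CD59 (0.52, -0.15 and -1.43) lie on both sides.

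The rest of the complement system was read from lists of 53 other genes. Of these, 22 were measured on both arrays, 4 were seen only on the pubertal array, 2 only on the infant array and 25 on neither. The measured ones had a median of 0.25, with 5 higher and 1 lower by at least 2-fold, where 7.32% and 6.32% of all measured genes were. The genes that were higher came from several steps of the cascade. C7, a component of the membrane pore, was 8.33-fold higher, at 411 units on the pubertal array against 46.4 on the infant array with P213857. A second C7 probe was seen in the pubertal culture only, at 111 units. The difference of C7 was 3.06, but 2.05 with normexp background correction and 3.88 without the filter on dim probes, which takes in the second probe. COLEC11, a lectin that starts the lectin pathway, was 4.38-fold higher, with probe differences of 1.93 and 2.33. CFP, or properdin, which stabilises the alternative convertase, was 3.91-fold higher, at 1160.4 and 279 units. SUSD4, a membrane protein that inhibits complement, was 3.53-fold higher at 113 and 30.2 units, but its difference was 0.72, short of 2-fold, with normexp background correction. MASP1, a protease gene of the lectin pathway list, and FCN1, a ficolin, had probes well above background in the pubertal culture only. These were 2 of 3 probes of MASP1 and 1 of 3 of FCN1, with signals higher there by 4.24-fold or more and 2.07-fold or more. Both MASP1 probes seen are assigned by the array to the same transcript entry, and the bound for MASP1 rests on that entry alone. The other MASP1 probe, designed on a different entry, read 5.05 and 7.43 units and was well above background on neither array. Each bound is set against the lowest signal well above background on the infant array, or the probe's own signal where that was higher.

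Within the alternative pathway, CFB and CFP thus stood on opposite sides, with CFB lower and CFP higher on the pubertal array by more than their errors and under each of the scalings tried. The only gene of the other complement lists that was at least 2-fold lower was PTX3, a pentraxin that binds C1q and is made in inflamed tissue. It read 260.0 units on the pubertal array against 2208 on the infant array and was 9.03-fold lower, 20th from the lowest of all measured genes. The fluid-phase inhibitors clusterin and vitronectin, which block the terminal complex, were both measured. CLU read 54641 units on the pubertal array against 31258 on the infant array, a difference of 0.72 ± 0.20. VTN read 115 and 101 units, and its difference of 0.10 ± 0.22 was within its error. C4A and C4B, whose near-identical sequences the probes may not separate, differed by 0.15 and 0.53.

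**Figure D4:**
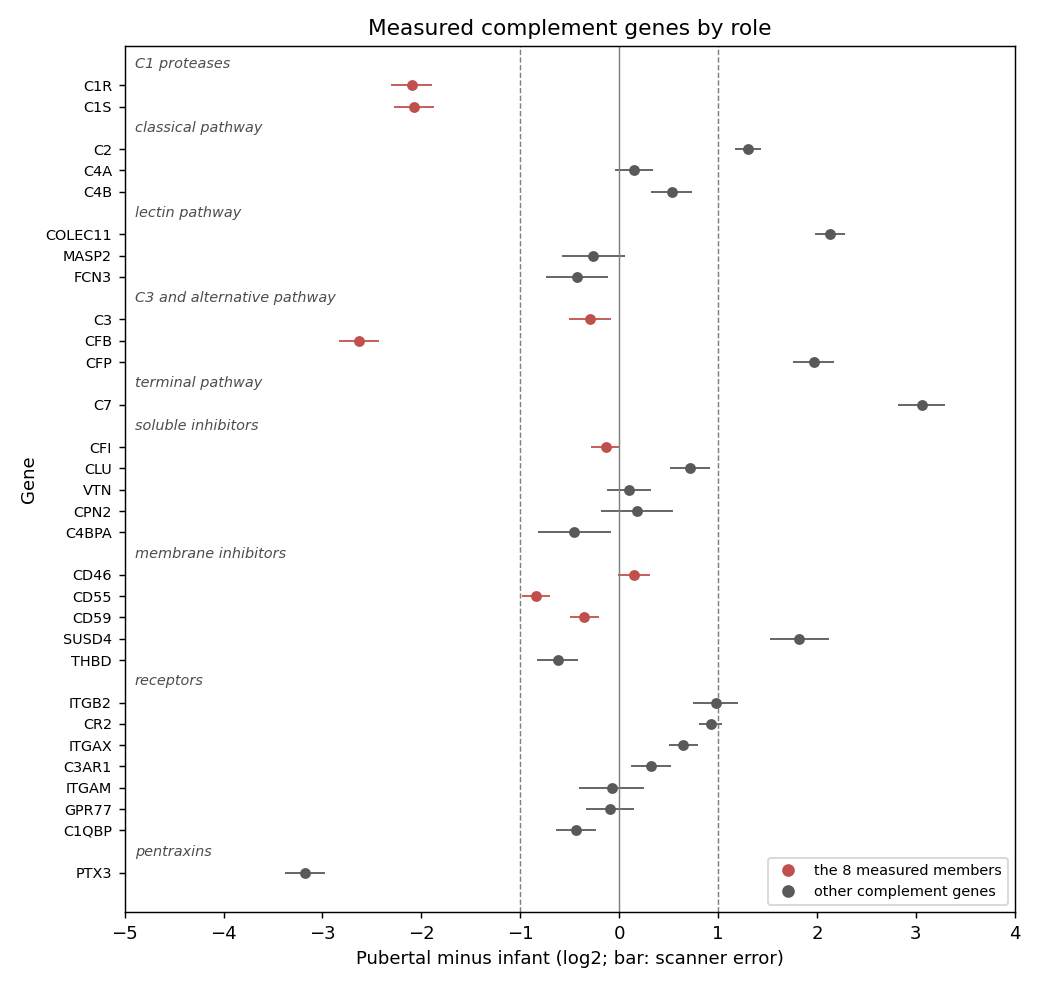
Difference between the arrays (pubertal minus infant, log2) with its scanner error for the 8 measured complement genes (red) and the 22 other measured genes of the complement lists (grey), grouped by role, with dashed lines at 2-fold. CFB and PTX3 lie to the left, C7, COLEC11, CFP, SUSD4 and C2 to the right, and C1R and C1S lie side by side at -2.10 and -2.07.

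Factor B, C1r, C1s and C3 are known as genes that inflammatory cytokines induce, so the genes of those cytokines, their receptors and their transcription factors were read as well. Of 22 such genes, 18 were measured on both arrays. Their median was -0.95, with 9 at least 2-fold lower, 0 at least 2-fold higher and 16 below 0, where 6.32%, 7.32% and 54.2% of all measured genes were. The largest differences were those of IL6, which encodes interleukin-6 (-2.48 ± 0.21), OSMR, a receptor chain for oncostatin M (-1.75 ± 0.15), and IL1A, which encodes interleukin-1 alpha (-1.67 ± 0.22). On the spike-in scale they were -1.43, -0.69 and -0.62, the median of the 18 was 0.10, and the counts turned to 1 at least 2-fold lower (IL6) and 3 at least 2-fold higher (IFNGR2, IL6R and IFNGR1, chains of the receptors for interferon gamma and interleukin-6). With the values scaled on the 75th percentile, the brightest probe of OSMR alone gave -0.94. IL1B, TNF, IFNG and OSM were well above background on neither array. Whether these cytokine genes had a part in the differences of the complement genes was not tested.

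Of all measured genes, those nearest in difference to CFB were KRT18P41 (-2.63), a keratin pseudogene, and IL15RA (-2.65), a receptor chain for interleukin-15. FTHL17 (-2.09) and MGAT4A (-2.11) were nearest to C1R, and the keratin pseudogenes KRT18P47 (-2.08) and KRT18P12 (-2.07) to C1S. With 2 arrays, likeness here is only the size of the gap between single differences.

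Markers of other cell types also differed between the arrays. Over all measured genes, 7.32% were at least 2-fold higher, 6.32% were at least 2-fold lower and 54.2% were below 0. Of 11 macrophage markers, 8 were measured on both arrays and 2 on the pubertal array alone, and 5 were at least 2-fold higher there. Their summed level, in units of the array's 75th percentile, was 6.24 in the pubertal and 2.11 in the infant culture, with CD163 at 3.09, CSF1R at 2.07 and PTPRC at 1.99 in log2 difference. CD68 differed by -0.94 (above 0 on the spike-in scale), and LYZ was well above background on neither array. CFP, C1QB and ITGB2, a chain of the leukocyte complement receptors (0.98), are known products of white blood cells and had the higher signal on the pubertal array. ITGAM, which pairs with ITGB2 in a complement receptor, differed by -0.08 ± 0.33. The complement receptor genes ITGAX, C3AR1, CR2 and GPR77 differed by 0.65, 0.32, 0.93 and -0.09. The 4 probes of CR2 disagreed, at 1.91, 2.15, 0.06 (the brightest) and -0.41, so its mean gives no clear size. Of the other complement genes known from white blood cells, C1QA, C1QC, C5AR1, CD93 and VSIG4 were well above background on neither array. The part of such cells in these differences was not tested. Of 13 germ cell markers, 6 were measured on both arrays and 4 only on the pubertal one. ACR was seen only in the infant culture, where it was higher by 1.29-fold or more. Of the 6, 5 had a pubertal signal higher by 2-fold or more, and the median was 3.72. The summed level of the 6 was 13.9 in the pubertal and 4.29 in the infant culture. The other of the 6, UTF1, differed by 0.24 and was the brightest of them in both cultures, at 2.13 and 1.88 on the log2 scale. DAZL was 26.3-fold and STK31 26.2-fold higher. Their infant values of -3.33 and -3.58 lay near the lowest signal well above background on that array (-4.36), so these folds are uncertain. PRM1 and TNP1, genes of late spermatids, were well above background on neither array. Of the 8 peritubular and smooth muscle markers, all 8 were measured and above 0, 6 were at least 2-fold higher, and their median was 1.36, with ACTA2 11.0-fold higher and a summed level of 169 against 84.6. The part of germ cells and of peritubular cells in the differences of the complement genes was not tested. Of 8 Leydig cell markers, 7 were measured, and their summed level was 48.6 in the pubertal and 153 in the infant culture. STAR, at 2.41 in the pubertal and 6.65 in the infant culture on the log2 scale, weighed most in the infant sum. At least 2-fold lower were 3 of the 7 (STAR, CYP17A1 and CYP11A1). The other 4, HSD3B2, HSD17B3, INSL3 and NR5A1, differed by 0.25, 0.35, 0.41 and 0.17, and the median of the 7 was 0.17. Fibroblasts are another known source of C1r and C1s. Of 10 fibroblast markers 8 were measured, 4 of them above 0 and 4 below. By at least 2-fold, 2 were higher (COL1A2 at 1.92 and DPT at 1.60) and 1 was lower (DCN at -1.49). The summed level of the 8 was 31.1 in the pubertal and 37.0 in the infant culture. LUM, which this sum leaves out, was seen only in the pubertal culture and was higher by 6.73-fold or more. The part of either cell type in the lower signals of C1R, C1S and CFB was not tested. Hepatocytes are the main source of serum complement. Of 7 hepatocyte markers, ALB, APOB, TTR and FGB were well above background on neither array. The other 3 were measured on both, with differences of -1.43 for APOA1, -0.19 for AHSG and 0.20 for SERPINA1. APOA1 was bright, at 5.34 in the pubertal and 6.77 in the infant culture on the log2 scale.

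**Figure D5:**
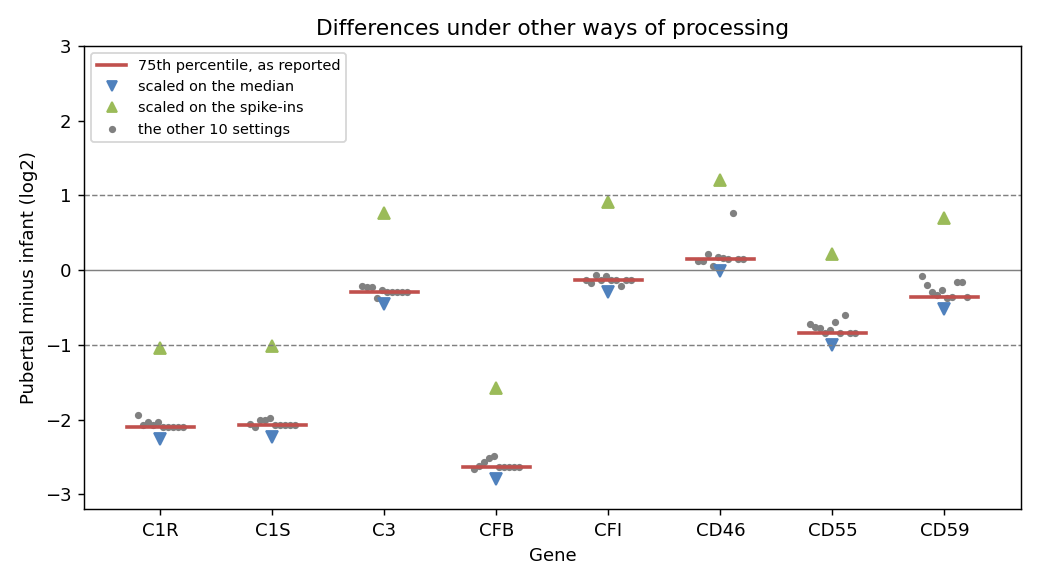
Difference between the arrays (pubertal minus infant, log2) of the 8 measured complement genes as reported (red line) and under the 12 other ways of processing, with scaling on the median and on the spike-in probes marked by triangles and dashed lines at 2-fold. CFB, C1R and C1S lie below the lower dashed line in each setting, at -1.58, -1.05 and -1.02 on the spike-in scale, whereas C3, CFI, CD55 and CD59 change sign there.

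The lower signals of CFB, C1R and C1S each rested on a single probe with a single spot. Replicate spots, available for 27 probes, gave a median SD of 0.11 for the difference and a 95th percentile of 0.31, which covers the spot and not the spread between cultures. None of the spots of the 17 probes lay in a disturbed area of the arrays, and the spots around them had median differences between -0.26 and 0.13, over 19 to 29 spots each. Over the 12 other ways of processing, the difference of CFB ran from -2.79 to -1.58, that of C1R from -2.26 to -1.05 and that of C1S from -2.23 to -1.02.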

How the data were processed

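The authors deposited one intensity table for each array, written by Agilent Feature Extraction 10.5.1.1 according to the submitters' processing notes. The processed intensity was background-subtracted and detrended within each array, with surrogates for low values and no scaling between arrays, and the human array design is annotated on hg18, per the file headers. The error of each spot was used as deposited, and probe positions were not used here.

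Processed signals were divided by the array's 75th percentile (406.7 intensity units pubertal, 382.4 infant) and put on the log2 scale. Outlier spots (96 and 91) were left out, and spots of a probe were averaged. A probe counted as measured where 50% or more of the spots carried the flag for well above background on both arrays, and a gene is the mean of such probes. Python 3.11.15 with pandas 2.3.3 was used, and R 4.3.3 with limma 3.58.1 for normexp and loess. The functions were tested on simulated data. Neighbouring genes were read from the RefSeq table of the macaque assembly T2T-MMU8v2.0, in which all 9 names occur. The number of arrays limits the precision.

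The members and the gene and marker lists were chosen with earlier results of these data known. Named were the 9 members, SERPING1, CLU and VTN, every other listed complement gene at least 2-fold different, the 2 genes nearest in difference to each member past 2-fold, and up to 3 genes with the largest difference of the cytokine and immune privilege lists. One gene that the rule takes is not reported here. Any other gene named was picked with its values in view.

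Alternatives were normexp (offset 50), median pixels minus local background, scaling on the median, on detected probes or on spike-ins, quantile and loess (span 0.3) normalization, no filter or a weaker flag for dim probes, the brightest probe or the median of probes, leaving out 833 spots in disturbed areas, and thresholds of 1.5-fold and 4-fold.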

Additional observations from a re-analysis of the deposited data

How the results depend on the processing

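Of 150 values recomputed under other settings, 125 moved by less than the spread used for each, 25 moved by more, and the 3 members at least 2-fold lower stayed so under the 12 settings. Scaling on the spike-in probes, which shifted all differences by 1.05, gave C3 0.76, CFB -1.58, CFI 0.92, C1R -1.05, C1S -1.02, CD46 1.21, CD55 0.21 and CD59 0.70, with a member median of 0.45, 1 member (CD46) at least 2-fold higher and 15 other complement genes at least 2-fold different. Scaling on the median gave CFI -0.30, CD55 -1.002 and CD59 -0.51. The brightest probe alone gave CD46 0.76, CD55 -0.60 and CD59 -0.15. Without a filter on dim probes CD55 was -0.69, the member median over 9 genes was -0.38, and 11 other complement genes were at least 2-fold different, 9 higher and 2 lower. CD59 was -0.081 with normexp, -0.20 with median pixels and -0.15 with the median of probes. The count of other complement genes was 11 at 1.5-fold and 3 at 4-fold, against 6 at 2-fold.

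Over all genes, 900 were at least 2-fold lower and 1042 higher. These counts were 568 and 553 with normexp, 1363 and 1710 with the weaker flag, 1485 and 2081 without a filter on dim probes, and 112 and 7096 on the spike-in scale. Scaling on the median gave 1305 lower and 785 higher. With normexp or loess, 2 members in place of 3 were at least 4-fold lower (C1R was -1.94 with normexp and C1S -1.98 with loess), and on the spike-in scale 0 were. The causes of these shifts were not tested. No paired analysis was possible because each group has 1 array. Dim probes, such as that of CFD, set no limit on how much of a monkey transcript was present.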

Other observations

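Sertoli cells are known for molecules beyond complement inhibitors that quiet immune cells around the germ cells. A list of genes tied to immune privilege was read, and not each of its genes is known for this role in Sertoli cells. Of its 22 genes on the array, 17 were measured on both arrays, with a median difference of -0.14. By at least 2-fold, 6 were higher and 2 lower in the pubertal culture, where 7.32% and 6.32% of all measured genes were. The largest differences were those of SERPINA5, a serine protease inhibitor (1.84 ± 0.14), LGALS1, an immunosuppressive galectin (-1.83 ± 0.20), and GAS6 (1.67 ± 0.20). GAS6 is the ligand of the receptors TYRO3, AXL and MERTK, through which Sertoli cells take up dying germ cells. These 3 receptors were looked at after their values were seen. TYRO3 differed by 1.11 ± 0.20 and MERTK by 1.51 ± 0.12, both toward the pubertal array, while AXL differed by -0.14 ± 0.20, within its error. On the spike-in scale all differences are higher by 1.05, which brings that of AXL and the median above 0 and leaves LGALS1 lower.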
